A study of Drosophila melanogaster with 24 samples.

Results

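The comparison described here is that of the heads of male AD flies at day 30 after eclosion with those of AD flies at day 20, the last 2 of the ages sampled. Its members are the 3 libraries of AD day 30 and the 3 libraries of AD day 20, chosen by the genotype and age in the labels, 6 of the 24 libraries of the series. The other libraries cover AD flies at days 3 and 10 and wild-type (WT) flies at days 3, 10, 20 and 30, with 3 libraries in each group. By the labels the AD flies carry hAPP, whereas the methods of the study describe a UAS-Aβ42 transgene in the w1118 background driven by elav-GAL4 c155, a driver on the X chromosome that is active in neurons. The WT flies were w1118 crossed to the same driver, so that AD and WT heads share the GAL4 insertion and differ in the amyloid transgene. Each library was made from poly(A)-selected RNA of pooled heads, and a head holds brain, compound eyes, antennae, fat body, muscle and blood cells. In pooled tissue, fewer cells of a type and less RNA per cell cannot be told apart. No source stated that the 3 replicates of a group were reared apart, so the p-values measure the spread between these libraries only.

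Amyloid-beta peptides are released by cleavage of the amyloid precursor protein and aggregate in Alzheimer's disease, and flies that express the human peptide in neurons lose locomotion, memory and neurons with age. Nerve cells depend on voltage-gated sodium, potassium and calcium channels to fire, on nicotinic acetylcholine receptors for most fast excitation in the insect brain, and on a set of vesicle proteins for transmitter release. The aging fly head is also known for a rise of innate immune transcripts, among them the antimicrobial peptides that the Toll and IMD pathways induce through NF-kappaB factors such as Relish.

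A pair of libraries needs to be named before the results. AD day 20 replicate 1 belongs to another processing run than the other 5 libraries: the added genes of the authors' own numbering have 2 sets of lengths, and replicate 1 of days 3, 10 and 20 in both genotypes carries the first set. The 6 libraries of the first run hold 21168175 to 26731357 counts and the 18 of the second run 12884945 to 16237611, so the day 20 group mixes runs and the day 30 group does not. Between the runs 49.2% of the 10479 genes tested differed at a false discovery rate (FDR) under 0.05. The run was therefore a term of the model, fitted on all 24 libraries, in which 6 groups have libraries on both sides. AD day 30 replicate 3 has the level of w, the eye colour gene that is mutant in the w1118 background and is carried by many fly transgenes as a marker, that WT heads have: 1529 normalized counts, against 3064 and 3129 in replicates 1 and 2 of AD day 30, 3075 to 3594 at AD day 20 and 1094 to 1523 in the 6 WT libraries of days 20 and 30. LysS, a lysozyme gene, stood at 193 normalized counts in that library, against 2083 and 3448 in replicates 1 and 2 and 436 to 1663 at AD day 20. In the 6 WT libraries of days 20 and 30 it stood at 36.1 to 176. By their median, the 53 genes lowered in AD at day 30 were lower in AD day 30 replicate 3 than in any WT library of the second run, as described with their levels. This did not hold for each of them. They were chosen with that library in the comparison, so its low median is in part fixed by their choice and cannot decide its genotype. The label of that library was kept, and results are given with and without it. Normalized counts are counts scaled to a common library size by the trimmed mean of M-values. Yp1, a yolk protein gene of females, stood at 117 to 269 normalized counts in the 12 libraries of days 20 and 30, and ninaE, the opsin of the outer photoreceptors at 478194 to 791185.

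With the run in the model, 79 genes in AD heads differed past the threshold between these ages, set at an FDR under 0.05 by edgeR's quasi-likelihood test with Benjamini-Hochberg adjustment and a log2 fold change beyond 1 in either direction. Of these, 53 were lower at day 30, 0.506% of the genes tested, and 26 were higher, 0.248%. The lowered genes included 8 members of 4 lists of neuronal genes, among them the sodium channel para, the potassium channels Sh, SK and eag and 3 nicotinic receptor subunits. The raised genes included the antimicrobial peptide AttC, the immune-induced peptide edin and the peptidoglycan amidase PGRP-SC2. Of the 26, 8 had at most 11.0 normalized counts in each of the 6 libraries compared, but 441 to 1618 in WT day 3 replicate 1 and 49.5 to 199.96 in AD day 10 replicate 1, which belong to the first run and enter the run term. These are CG8701, CG12861, CG31740, CG3124, S-Lap2, S-Lap3, Mst84Db and sip2, and the mean of S-Lap2 was lower at day 30 (0.748) than at day 20 (1.95), against its fitted sign. None of these was called without the run term, but neither was any other gene, so this does not set them apart. Without WT day 3 replicate 1, a setting added after seeing the data, all 53 lowered genes and 18 of the 26 raised genes were still called. By the FDR limit alone, 410 genes (3.91%) were lower and 147 (1.4%) higher.

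These calls depended on the treatment of the run. Without the run term no gene passed by edgeR, although 865 had an unadjusted p under 0.05. Without AD day 20 replicate 1, 35 genes were lower (0.334%) and 4 higher (0.0382%), and 34 of the 53 lowered and 4 of the 26 raised genes were still called. Without AD day 30 replicate 3, 75 genes were lower (0.716%) and 15 higher (0.143%), with 43 of the 53 and 12 of the 26 among them. Without both libraries, 60 were lower (0.573%) and 4 higher (0.0382%), with 40 of the 53 and 3 of the 26 among them. The sign of the change held for all 53 lowered genes in each of these fits, and for at least 24 of the 26 raised genes. Most of the lowered genes were thus still called with either library left out, while 22 of the 26 raised genes lost the call without AD day 20 replicate 1.

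Voltage-gated channels were among the lowered genes. The gene para encodes the voltage-gated sodium channel that carries the action potential, and lies on chromosome X at 16455027 to 16533096 (genome release 6; its position was taken by symbol). It stood at 5328, 11022 and 9977 normalized counts in AD day 20 replicates 1 to 3 and at 3408, 3504 and 4667 in AD day 30 replicates 1 to 3. Every day 30 library lay below every day 20 library, and the library of the first run was the lowest at day 20. The fitted log2 change was -1.47 (SE 0.23, adjusted p = 0.00205 by edgeR), a 2.76-fold fall, and -1.44 without AD day 20 replicate 1 and -1.63 without AD day 30 replicate 3.

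Sh, the Shaker potassium channel that repolarises the membrane (chromosome X, 17924307 to 18063247), showed how the run enters. Its values were 6747, 20446 and 18942 normalized counts at day 20 and 5916, 5654 and 8333 at day 30. The 2 day 20 libraries of the second run lay above all day 30 libraries, whereas AD day 20 replicate 1 lay among them, so the groups overlapped. The fitted change of Sh was -1.56 (SE 0.25, adjusted p = 0.00254 by edgeR) and stayed at -1.57 when AD day 20 replicate 1 was left out (adjusted p = 0.0131).

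SK, a potassium channel gated by calcium (chromosome X, 5340236 to 5405138), fell in the same way, from 1761, 3717 and 3887 to 1414, 1435 and 1958 normalized counts, a log2 change of -1.24 (SE 0.19, adjusted p = 0.00205 by edgeR). The ether-a-go-go potassium channel eag (chromosome X, 14955477 to 15009989) stood at 1107, 1544 and 1321 at day 20 and at 649, 566 and 870 at day 30, without overlap, a log2 change of -1.10 (SE 0.19, adjusted p = 0.0029 by edgeR). The 4 channels lie on the X chromosome. Of the 18 tested channels in a list written by hand, 4 were lower past the threshold, 9 by the FDR limit alone and none higher by either, with a median log2 change of -0.57 beside 0.02 over all tested genes.

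Among the other channels, Ih, the hyperpolarisation-activated cation channel, had a log2 change of -0.89 and slo, the large-conductance calcium-activated potassium channel, one of -0.82, both under the FDR limit. Shab, Shal and Ca-alpha1D, which encode a pair of delayed and transient potassium channels and an L-type calcium channel, had -0.44, -0.22 and -0.16 and did not pass it. The estimates for KCNQ, sei and na lay between -0.07 and 0.11. The fall was therefore not shared by all channels on the list.

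**Figure D1:**
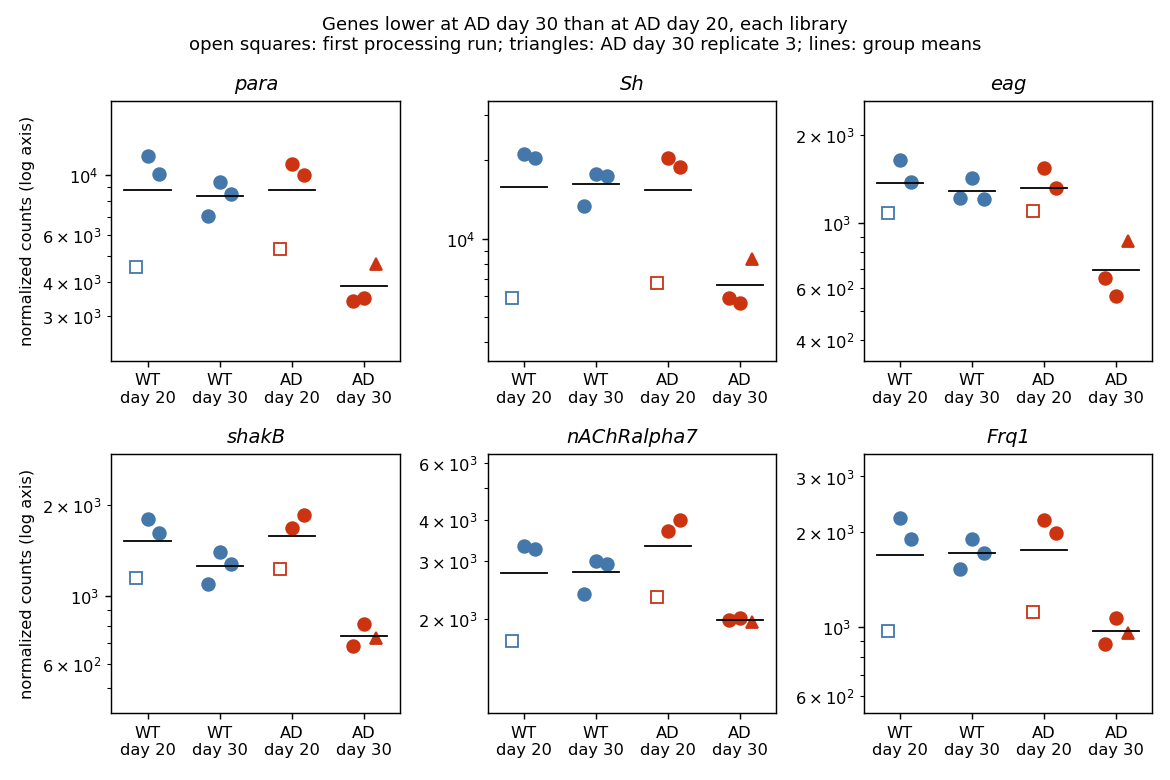
Normalized counts (log axis) of 6 genes lower at AD day 30, in the 3 libraries of each of WT day 20, WT day 30, AD day 20 and AD day 30, with group means as lines. For para, eag, shakB, nAChRalpha7 and Frq1 all 3 AD day 30 libraries lie below all AD day 20 libraries, and the open squares of the first run lie below the other libraries of their group in every panel.

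Nicotinic acetylcholine receptor subunits were lowered in part. Of the 10 tested subunits, 3 were lower past the threshold, 7 by the FDR limit alone and none higher, and the median log2 change was -0.79. nAChRalpha7 (chromosome X, 19327075 to 19348447) stood at 2323, 3715 and 3996 normalized counts at day 20 and at 1973, 2008 and 1952 at day 30. The day 30 libraries were close together and all below day 20, a log2 change of -1.03 (SE 0.18, adjusted p = 0.00307 by edgeR). nAChRalpha6, which is the target of spinosyn insecticides (chromosome 2L, 9793317 to 9886250), stood at 3264, 8300 and 8506 at day 20 and 3276, 3388 and 4451 at day 30, a log2 change of -1.19 (SE 0.23, adjusted p = 0.00579 by edgeR). Here the library of the first run was level with day 30. For nAChRalpha5 (chromosome 2L, 14040170 to 14094401) the log2 change was -1.01, and it was -0.95 without AD day 20 replicate 1. The subunits nAChRalpha1, nAChRalpha3, nAChRalpha4 and nAChRbeta1 had changes of -0.62 to -0.94, whereas nAChRalpha2, nAChRbeta2 and nAChRbeta3 had 0.01, 0.11 and 0.54 and did not pass.

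Genes of the synapse followed to a smaller extent. Of 20 tested neuronal and synaptic vesicle genes, 19 had a negative estimate, 12 passed the FDR limit alone and 1, cac, passed the threshold, with a median of -0.46. The gene cac encodes the calcium channel of the active zone (chromosome X, 11931280 to 11985087), and had 3750, 7938 and 7975 normalized counts at day 20 and 3872, 3921 and 3617 at day 30, a log2 change of -1.10 (SE 0.23, adjusted p = 0.00841 by edgeR). Complexin (cpx), which clamps vesicle fusion, had a log2 change of -0.85 with 23522, 24301 and 22794 normalized counts at day 20 against 12964, 11824 and 16547 at day 30, so in this gene all 3 day 20 libraries, that of the first run included, were high. The neuronal RNA-binding protein elav, a marker of neurons whose promoter drives the transgene, stood at 3119, 3797 and 3430 at day 20 and 2299, 2349 and 2267 at day 30, a log2 change of -0.73 (adjusted p = 0.0125 by edgeR, 0.0588 without AD day 20 replicate 1). Rop and Vha100-1, which serve vesicle fusion and acidification, had estimates of -0.05 and 0.10.

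The summed level of the 20 neuronal genes was 163432 to 187197 normalized counts in the AD day 20 libraries and 118728 to 137850 at AD day 30, without overlap, and 154356 to 199991 and 164470 to 170559 in WT flies at days 20 and 30. The sums of 30 photoreceptor genes overlapped through the library of the first run alone. They were 1266280 in that library, 1674990 and 1712880 in AD day 20 replicates 2 and 3, and 1316080 to 1382850 at AD day 30. In WT flies they were 1310980 in the library of the first run, 1730170 and 1705580 in the other day 20 libraries, and 1457230 to 1575760 at day 30. Of the 30 genes, 4 were lower in AD by the FDR limit alone, with a median of -0.11. The 17 glial genes summed to 41599 to 45920 and 41922 to 48751 with a median of 0.06, and the 23 tested muscle genes had a median of -0.08. The part of a change in the mix of cells in these results was not tested.

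Of 18 tested learning and activity genes, 5 were lower by the FDR limit alone and none passed the threshold, with a median of -0.31. The phosphodiesterase gene dnc had a log2 change of -0.77, rsh -0.79, the protein kinase A subunit Pka-C1 -0.73 and CaMKII -0.70. Arc1, an activity-regulated gene whose protein forms capsids, had a positive estimate of 0.97 that did not pass (adjusted p = 0.133 by edgeR). The calcium sensor Frq1 (chromosome X, 18155369 to 18174744) passed the threshold, from 1110, 2175 and 1979 to 883, 1067 and 957 normalized counts without overlap, a log2 change of -1.14 (SE 0.18, adjusted p = 0.00205 by edgeR). The gene of the gap junction protein shakB (chromosome X, 20761071 to 20927050), an innexin of the electrical synapses of the giant fibre escape circuit, had 1230, 1682 and 1852 at day 20 and 685, 813 and 727 at day 30. The groups did not overlap, and the log2 change was -1.27 (SE 0.18, adjusted p = 0.00161 by edgeR), -1.25 without AD day 20 replicate 1 and -1.25 without AD day 30 replicate 3.

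Unr, an RNA-binding protein of translational control (chromosome 3L, 8432322 to 8442381), stood at 9032, 15912 and 13039 normalized counts at day 20 and 5369, 5658 and 8624 at day 30, a log2 change of -1.36 (SE 0.28, adjusted p = 0.00869 by edgeR). The NHL domain protein wech (chromosome 2R, 7478853 to 7489823) had 715, 1206 and 1024 at day 20 and 568, 569 and 603 at day 30, a change of -1.09. The nuclear receptor Hr3, of the ecdysone response (chromosome 2R, 10203995 to 10237348), had 1096, 1479 and 1347 against 583, 505 and 926, a change of -1.15 (SE 0.19, adjusted p = 0.00254 by edgeR). In each of these genes every day 30 library was below every day 20 library. The ecdysone-induced factor br had a change of -1.002 and the clock factor Pdp1 one of -1.14, the only member of 14 tested clock genes past the threshold. The RNA-binding proteins fne, of the ELAV family, Imp, bru3 and Rbp6, and the transcription factors pros, ct, chinmo, mamo and jim were also among the 53, with log2 changes of -1.03 to -1.40. They were named after their values had been seen.

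The paralogs scyl and chrb, which restrain TOR signalling under stress, were both lowered. The AD day 20 libraries held 2852, 4035 and 4032 normalized counts of scyl (chromosome 3L, 11252307 to 11256172) and the AD day 30 libraries 1808, 1796 and 2512, a log2 change of -1.05 (SE 0.15, adjusted p = 0.00161 by edgeR). chrb had 2582, 3904 and 3994 against 1740, 1899 and 2296, a change of -1.04, and was chosen after its values were seen. In these genes AD day 20 replicate 1 lay between the other day 20 libraries and day 30.

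Among the lowered genes, CG13428 (chromosome 2R, 20539512 to 20540448) stood at 153, 113 and 343 normalized counts at day 20 and 16.1, 1.12 and 19.0 at day 30, a log2 change of -4.82 with an SE of 1.12 (adjusted p = 0.0156 by edgeR, 0.0549 without AD day 20 replicate 1). CG43739 (chromosome 2L, 20871335 to 20918931) had 114, 124 and 82.9 against 18.1, 8.98 and 41.4, a change of -2.23 (SE 0.51, adjusted p = 0.0152 by edgeR, 0.0503 without AD day 20 replicate 1). These values hold the library of the first run level with the others at day 20. CheA75a, of a family of chemosensory lipid-binding proteins, had 39.5, 8.42 and 43.5 at day 20 and was at 0 in all day 30 libraries, at least 10.2-fold lower when set against a floor of 3 normalized counts per library. It was chosen after its values were seen and is the only one of the 53 at 0 in every day 30 library. CG15282 (chromosome 2L, 14712471 to 14713298) had 804, 830 and 953 against 479, 438 and 445 and a log2 change of -1.07 (adjusted p = 0.0212 by edgeR, 0.0791 without AD day 20 replicate 1), and CG32767 (chromosome X, 5071027 to 5084768) had 1122, 2051 and 2015 against 827, 1111 and 1010 and a change of -1.05. In both the groups did not overlap. The other lowered genes with changes beyond -1.7, chosen after their values were seen, were CG18540 (-5.05), CheA7a (-3.81), Cp18 (-2.99), inaF-D (-2.07), CG13622 (-1.93) and bol (-1.78). Of these, CG18540, CheA7a, Cp18 and CG13622 had no library above 55.7 normalized counts among those of AD days 20 and 30. The genes inaF-D and bol had 57.5 and 3143 in the library of the first run against 4701 to 6602 and 12934 to 13248 in the other day 20 libraries. Without AD day 20 replicate 1, CG18540 alone of these kept its call. CG18540 had 3.48, 2.41 and 35.3 normalized counts at day 20 and 0, 0 and 1.12 at day 30, so it leans on AD day 20 replicate 3.

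The mitochondrially encoded gene mt:ND5, a subunit of respiratory complex I, was the most abundant of the 53 and had the largest difference between the runs after inaF-D. It stood at 784481 and 848456 normalized counts in AD day 20 replicates 2 and 3 and at 387850, 488967 and 289744 at day 30, whereas AD day 20 replicate 1 had 18635. Its share of all reads counted was 0.104% to 0.138% over the 6 libraries of the first run and 1.76% to 8.23% over the other 18. Its fitted log2 change was -1.15 (SE 0.23, adjusted p = 0.00742 by edgeR), -1.07 without AD day 20 replicate 1 (adjusted p = 0.0336), and -0.91 in WT flies. All 11 tested mitochondrially encoded genes had negative estimates with a median of -0.66 in AD and -0.43 in WT flies, and mt:ND5 alone passed the threshold. The 72 tested nuclear subunits of oxidative phosphorylation had a median of -0.22, 67 of them negative, and none passed the FDR limit alone.

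Across the 24 libraries the 53 lowered genes had, by their median, a level in AD day 30 heads that no other library of the second run had. They were chosen for their fall in these AD day 30 libraries, so that low level is in part fixed by their choice. For each library the median over the 53 genes was taken of the log2 CPM (counts scaled to library size), less each gene's mean over the 18 libraries of the second run. This median was -1.13 to -0.66 in the 3 AD day 30 libraries and 0.24 to 0.28 in the 2 second-run libraries of AD day 20. It was -0.14 to 0.55 in the second-run libraries of AD days 3 and 10, which entered the run term but not the contrast, and -0.20 to 0.79 in the 9 WT libraries of that run. The 6 libraries of the first run, however, had medians of -1.25 to -0.59, as low as AD day 30, while that of all tested genes stayed between -0.02 and 0.03 in every library. The genes were called with the run term and none without it, so a low level in the first run is in part fixed by their choice. Across all tested genes the change from the second-run libraries of AD day 20 to AD day 30 and that run difference had a Pearson r of 0.33. This describes 10479 genes with no shared library, and genes are not independent. The same r was 0.21 for WT flies. What separates the runs was not given in the sources used here, and its part in the AD day 30 level was not tested.

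**Figure D2:**
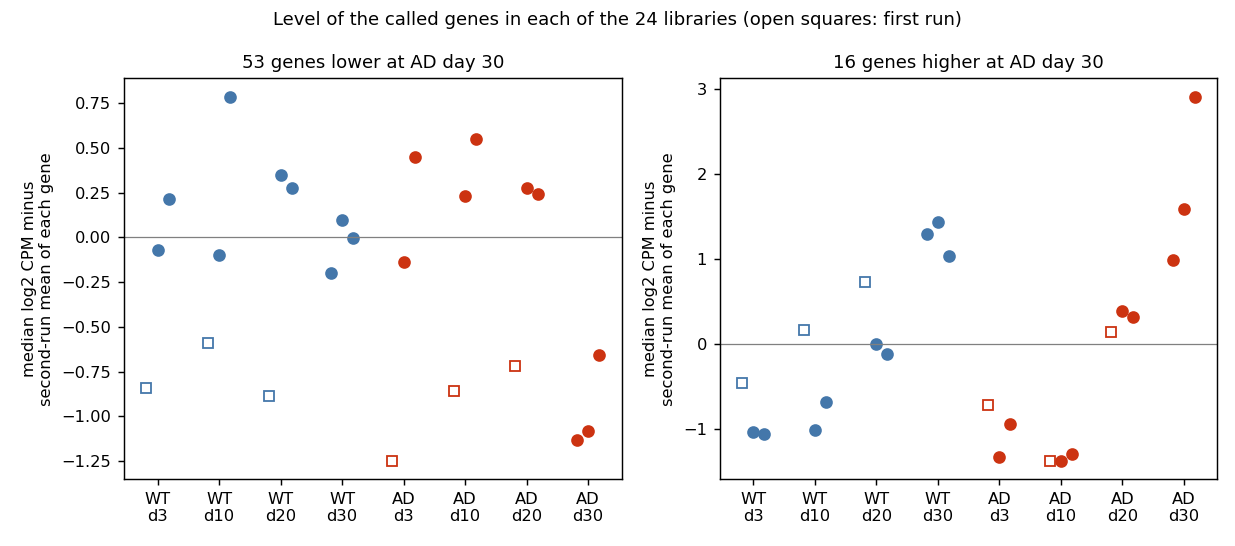
Median over the called genes of log2 CPM, less each gene's second-run mean, in each of the 24 libraries by genotype and day (d). The left panel holds the 53 lowered genes, where the AD day 30 libraries (-1.13 to -0.66) and the open squares of the first run lie below all others. The right panel holds the 16 raised genes with a mean of at least 50 normalized counts, which are highest at day 30 in both genotypes. Both sets were chosen by their change in AD from day 20 to day 30, which in part fixes the AD day 30 level.

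The lowered genes were long, a property the comparison did not use. The median span of the 53 genes on the genome, introns included, was 34147 bases, against 2798 bases over the 10425 tested genes with a position. Of 301 tested genes that span over 50 kb, 28.9% were lower by the FDR limit alone and 0.332% higher, and the median log2 change was -0.32. From 2 to 5 kb these values were 1.25%, 1.97% and 0.09. WT flies followed the same order with medians of -0.11 and 0.04, and the difference between the runs had -0.23 and 0.10. Without AD day 20 replicate 1 the AD median over 50 kb was -0.28, and without AD day 30 replicate 3 it was -0.40.

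Long genes on the neuronal lists were set beside other long genes. Of the 32 tested genes over 20 kb in 4 lists of neuronal genes (neuronal and synaptic vesicle, transmitter, voltage-gated channel and nicotinic receptor genes), 62.5% were lower by the FDR limit alone, with a median log2 change of -0.73. Of the 953 other genes over 20 kb the share was 19.8% and the median -0.19. Of the 32 genes on the neuronal lists that span at most 20 kb the share was 31.2% and the median -0.24. Without AD day 20 replicate 1 the genes lower by this limit went from 20 to 16 of the 32 long neuronal genes, from 189 to 99 of the 953 other long genes and from 10 to 4 of the 32 short neuronal genes. In addition, 20 of the 53 lowered genes, 37.7%, lie on the X chromosome, as do 16.2% of the tested genes. Neither property was tested as a source of the change.

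**Figure D3:**
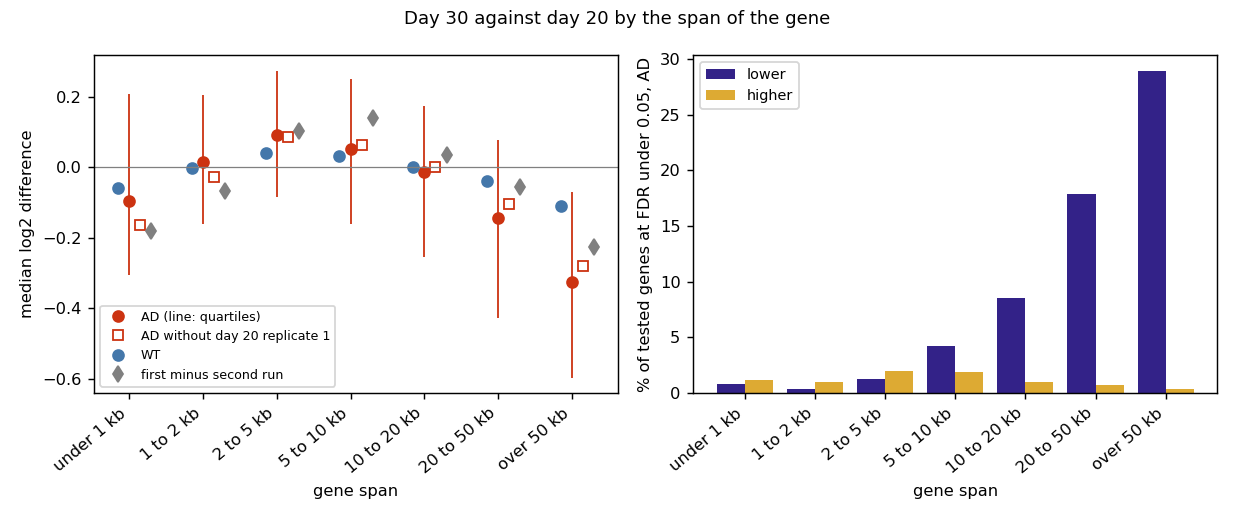
Left, median log2 change from day 20 to day 30 in AD (line, quartiles), in AD without day 20 replicate 1 and in WT, and the median log2 difference between the runs, in 7 classes of gene span. Right, percent of the tested genes of each class lower or higher in AD by the FDR limit alone, where the lower share reaches 28.9% over 50 kb.

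Of the 26 raised genes, 16 had a mean of at least 50 normalized counts over the 6 libraries and 12 did not overlap between the groups. Of all tested genes, 15.3% had groups that did not overlap, and of the 53 lowered genes 22. In 18 of the 26, AD day 30 replicate 3 was the highest day 30 library. AttC, an antimicrobial peptide of the attacin family against Gram-negative bacteria (chromosome 2R, 13393705 to 13394667), stood at 20206, 27869 and 21321 normalized counts at day 20 and 38583, 44304 and 72279 at day 30. Its groups were apart, with a log2 change of 1.25 (SE 0.29, adjusted p = 0.0169 by edgeR). AttC lost the call in edgeR without AD day 20 replicate 1 (1.07, adjusted p = 0.0862) and without AD day 30 replicate 3 (0.93, adjusted p = 0.0846), and had a change of 1.08 in WT flies.

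The serpin gene Spn88Eb (chromosome 3R, 15206703 to 15208762) had 754, 1137 and 1463 normalized counts at day 20 and 2236, 2727 and 4832 at day 30, a log2 change of 1.62 (SE 0.34, adjusted p = 0.00841 by edgeR). CG4757 (chromosome 3R, 11161207 to 11163498) had 939, 1744 and 1306 against 3312, 2810 and 6686, a change of 1.83 (SE 0.38, adjusted p = 0.0089 by edgeR). By edgeR these genes kept their calls without AD day 20 replicate 1 (adjusted p = 0.0417 and 0.0407) and without AD day 30 replicate 3 (0.0352 and 0.0413), but not without both (0.121 and 0.118). CG9512 (chromosome X, 14901844 to 14905549), chosen after its values were seen, was called in all of these fits, with 921 and 731 in the second-run libraries of day 20, 2157 in the library of the first run and 2045, 2588 and 2850 at day 30.

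Other raised genes leaned on AD day 30 replicate 3. The immune-induced peptide edin (chromosome 3L, 17494880 to 17495300) stood at 135, 101 and 34.0 normalized counts at day 20 and 125, 175 and 1437 at day 30, so replicates 1 and 2 of day 30 were close to day 20. Its fitted log2 change was 3.26 (SE 0.79, adjusted p = 0.0195 by edgeR), and 1.31 without AD day 30 replicate 3 (adjusted p = 0.29). PGRP-SC2, an amidase that degrades peptidoglycan and restrains the IMD pathway (chromosome 2R, 8716950 to 8717695), had 1446, 1716 and 927 against 1504, 3114 and 8935, a change of 2.03 that became 1.06 without that library (adjusted p = 0.18 by edgeR). The alkaline phosphatase Alp9 (chromosome 3L, 5595542 to 5597422) had 94.1, 44.5 and 95.2 against 219, 190 and 675. CG31728 had 47.0, 38.5 and 74.8 against 96.4, 127 and 580, and CG34227 (chromosome 2R, 11248126 to 11248610) 2787, 3581 and 3703 against 4219, 7636 and 21393. The call of each of these 5 genes was lost without AD day 30 replicate 3 and also without AD day 20 replicate 1, where the adjusted p by edgeR was 0.0599 to 0.171. CG33502, chosen after its values were seen, was at 954 in AD day 30 replicate 3 and at no more than 1.20 in the other 5 libraries, and rests on that library alone. Outside the comparison CG33502 was at 646 to 748 at WT day 10 and 425 in WT day 30 replicate 2. It was at 616 and 426 in replicate 1 of WT and AD day 3, and at no more than 2.32 in the remaining libraries.

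**Figure D4:**
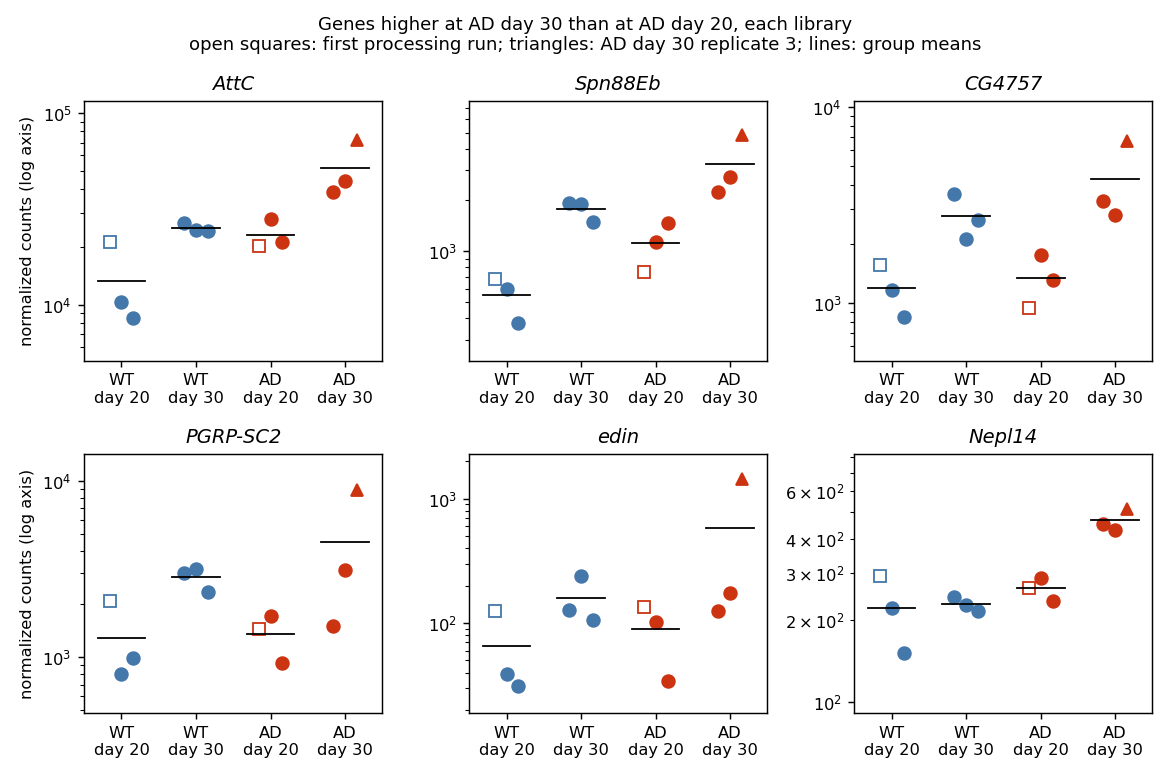
Normalized counts (log axis) of 6 genes higher at AD day 30, in the 3 libraries of each of WT day 20, WT day 30, AD day 20 and AD day 30, with group means as lines. AD day 30 replicate 3 (triangles) is the highest AD library in every panel and stands apart for edin (1437 against 175 at most in the other AD libraries), whereas the 3 day 30 libraries of Nepl14 lie close together (431 to 514).

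Nepl14, of the neprilysin family of peptidases, some members of which degrade amyloid-beta (chromosome 3R, 22761440 to 22763711), had 263, 288 and 237 normalized counts at day 20 and 455, 431 and 514 at day 30, a log2 change of 1.001 (SE 0.25, adjusted p = 0.0241 by edgeR, 0.123 without AD day 20 replicate 1). CG11034 (chromosome 2L, 5805395 to 5809063) had 101, 90.3 and 91.1 against 181, 181 and 245, a change of 1.30. CG34215 (chromosome 2R, 6831296 to 6831793) had 226, 604 and 450 against 833, 1321 and 1709, a change of 1.47. The long noncoding RNA lncRNA:CR32368 (chromosome 3L, 7915437 to 7915846) had 47.0, 148 and 162 against 275, 415 and 458, and CG9701 (chromosome 3L, 16733546 to 16739364) 419, 632 and 714 against 913, 741 and 1917. In all 5 the groups were apart, and the call was lost when AD day 20 replicate 1 or AD day 30 replicate 3 was left out, although the log2 changes stayed at 1.15 and 1.14 for CG11034, 1.29 and 1.21 for CG34215, 1.30 and 1.42 for lncRNA:CR32368 and 0.83 and 0.93 for Nepl14. That of CG9701 became 0.82 and 0.58. Of the 26 raised genes, 10 had a mean under 50 and 9 of those under 10 normalized counts, with no library above 21.3 in the latter. Among them are Mst84Db, a sperm gene at 0 in all day 20 libraries and in all but 1 at day 30, and the cuticle gene Cpr64Ac, and their fitted changes rest on a few counts.

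Few members of the immune lists passed the threshold, where 0.248% of all tested genes were higher past it. All 14 tested antimicrobial peptide genes had a positive estimate, with a median log2 change of 0.88, and AttC alone passed the threshold. The diptericin gene DptA stood at 13478, 19241 and 13050 normalized counts at day 20 and 18808, 30721 and 50195 at day 30, a change of 1.22 that did not pass (adjusted p = 0.0706 by edgeR). The drosomycin gene Drs, a target of the Toll pathway, had a change of 1.38 (adjusted p = 0.181 by edgeR), and CecA1 and Def, a cecropin and the fly defensin, had 0.41 and 0.38. The median of the list was 0.73 without AD day 20 replicate 1, 0.53 without AD day 30 replicate 3 and 0.38 without both, and it was 1.07 in WT flies over the same ages. The bomanins and other immune-induced peptides had a median of 0.48 over 18 genes, and 0.04 without both libraries. The 12 tested Turandot and JAK-STAT genes, 9 of them with positive estimates, had a median of 0.73, which was 0.01 without AD day 30 replicate 3, and the 24 tested Toll and IMD signalling genes had one of 0.19. Neither list had a member past the threshold.

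Of 16 tested peptidoglycan recognition and Gram-negative binding proteins, 15 had positive estimates with a median of 0.49, and 3 passed the FDR limit alone, PGRP-SC2, PGRP-SA (0.92), which serves the Toll pathway, and PGRP-LC (0.52), the receptor of the IMD pathway. Of 22 tested blood cell, opsonin and melanization genes, 5 passed the FDR limit alone, all higher, and the median was 0.47. Of all tested genes, 1.4% were higher by that limit. NimB1, of the Nimrod family of secreted and phagocytic proteins, stood at 302, 277 and 288 normalized counts at day 20 and 524, 426 and 495 at day 30, a log2 change of 0.79 (adjusted p = 0.00276 by edgeR). Tep2, a thioester protein that opsonises microbes, had 4345, 3519 and 3295 against 5052, 5212 and 8343, a change of 0.90 (adjusted p = 0.00396 by edgeR). In both genes the groups were apart, and both kept an adjusted p under 0.05 without either library. The summed level of the 22 genes was 26247 to 32295 at AD day 20 and 34149 to 42068 at AD day 30. Relish (Rel), the NF-kappaB factor of the IMD pathway, had a change of 0.76 (adjusted p = 0.0213 by edgeR) and 0.91 in WT flies, and an adjusted p of 0.104 by edgeR without AD day 20 replicate 1. No receptor passed the FDR limit without that library.

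**Figure D5:**
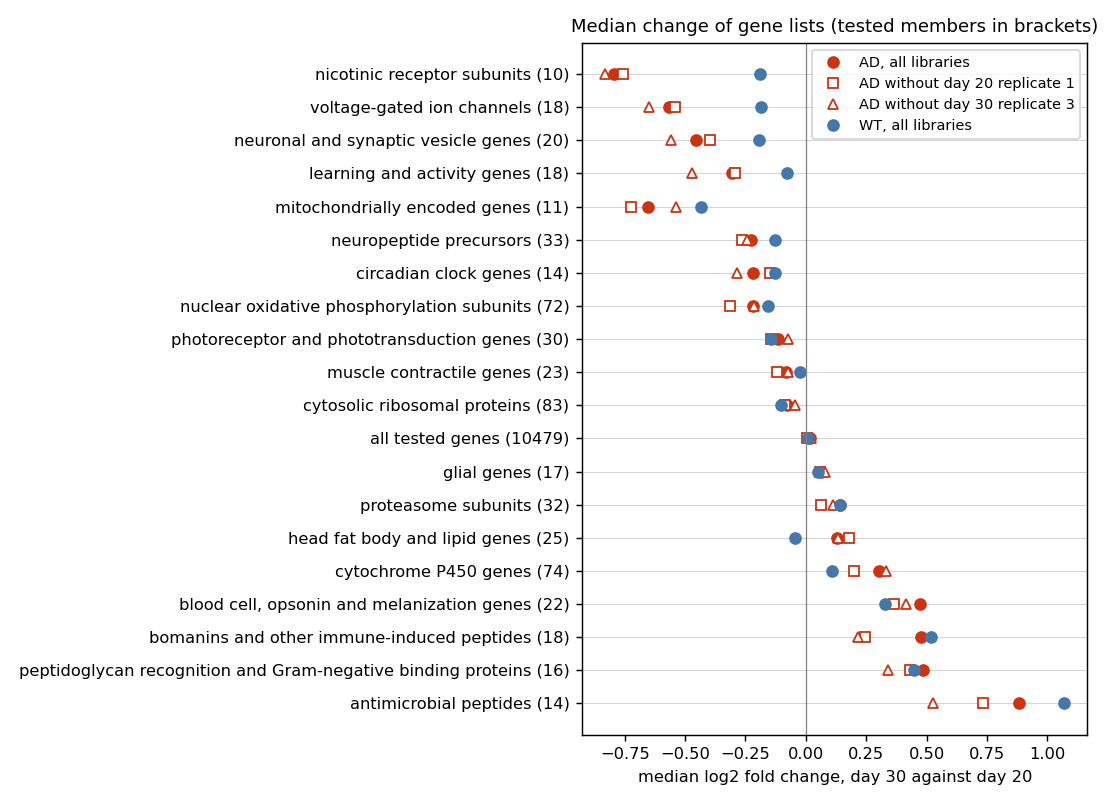
Median log2 fold change from day 20 to day 30 of 19 gene lists and of all tested genes, in AD with all libraries, without day 20 replicate 1 and without day 30 replicate 3, and in WT. The nicotinic receptor and channel lists lie at -0.79 and -0.57 in AD and -0.19 and -0.18 in WT, while the antimicrobial peptides lie at 0.88 in AD and 1.07 in WT.

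Of the amyloid and tau genes of the fly itself, Appl, the ortholog of the amyloid precursor protein, stood at 9603, 12626 and 12205 normalized counts at day 20 and 6403, 5819 and 9654 at day 30. Replicate 3 of day 30 lay just above the lowest day 20 library, so the groups overlapped, and the log2 change was -0.83 (SE 0.17, adjusted p = 0.00718 by edgeR). The alpha-secretase gene kuz had -0.65 and tau -0.40, both under the FDR limit. The peptidase Nep1 had 0.57 (adjusted p = 0.0257 by edgeR), and the gamma-secretase genes Psn and Nct had 0.13 and 0.00. None of the 15 tested genes of this list passed the threshold.

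Stress and housekeeping lists had medians from -0.19 to 0.14, beside 0.02 over all tested genes. None of the tested members passed the threshold among 18 Hsp70, Hsp90 and cochaperone genes (median 0.00), 12 small heat shock proteins (-0.19), 26 endoplasmic reticulum stress genes (-0.06), 24 autophagy genes (-0.05), 20 antioxidant genes (-0.01), 32 proteasome subunits (0.14), 83 cytosolic ribosomal proteins (-0.08) and 73 mitochondrial ribosomal proteins (-0.16). Negative estimates were found for 68 of the 83 cytosolic and 61 of the 73 mitochondrial ribosomal proteins, and positive ones for 24 of the 32 proteasome subunits. Atg2, an autophagy gene of lipid transfer, had a log2 change of 0.54 (adjusted p = 0.0124 by edgeR), and Hsp70Bb, a heat-inducible chaperone with near-identical copies that can share reads, -1.96 with an SE of 0.95 (adjusted p = 0.26). The Atf6 gene of the unfolded protein response had -0.52 (adjusted p = 0.0862 by edgeR).

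The same ages were compared in WT flies, whose libraries are not shared with the AD comparison. No gene passed the threshold by edgeR (0%), with 584 at an unadjusted p under 0.05, and 3 passed by DESeq2. Over the 53 genes lowered in AD the median WT estimate was -0.32, beside -1.17 in AD, and 50 of them had a negative WT estimate. Over the 26 genes raised in AD the median WT estimate was 1.72, beside 2.51 in AD, and 25 of them had a positive WT estimate. Raised genes near 0 counts in the libraries compared, described above, are among the 26. Each genotype has 1 library of the first run at day 20 and the model gives both the same run term, so the WT and AD estimates are not independent. The difference between the genotypes was tested as the interaction of genotype and age over days 20 and 30. No gene passed it by edgeR (0%), with 420 at an unadjusted p under 0.05 and none by DESeq2, where 454 had an unadjusted p under 0.05. The estimate of the interaction was negative for all 53 lowered genes, which were chosen for their fall in AD. For Sh, para and nAChRalpha6 it had unadjusted p-values of 0.00144, 0.00156 and 0.00485, which did not pass the adjustment, and for AttC and Spn88Eb the p-values were 0.679 and 0.675. A change particular to AD heads was therefore not established for any gene at this replication, and leaving out AD day 20 replicate 1, AD day 30 replicate 3 or both gave no call of the interaction either.

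Leaving out the library of the first run also thinned the calls by the FDR limit alone, from 410 lower genes to 191 (1.82%) and from 147 higher genes to 21 (0.2%). Of the 9 channel genes lower by that limit 6 were so without it, of the 7 nicotinic receptor subunits 6, and of the 12 neuronal genes 7. Of the 5 blood cell genes higher by that limit 2 were so without it. The median changes of the channel and nicotinic lists, -0.54 and -0.76, moved little.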

How the data were processed

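The authors filtered reads with SOAPnuke, aligned them with HISAT2 2.0.4 (per the labels, with Bowtie2 and RSEM also named) and deposited RSEM expected counts per gene and library, without normalization, beside FPKM values that the authors scaled by gene length and library size. An unlisted gene was taken as 0. Totals were 13458969 to 26731357 in the 6 libraries compared.

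The rounded expected counts entered edgeR 4.0.16 under R 4.3.3 (TMM, filterByExpr, 8 groups plus run, quasi-likelihood test), over 24 libraries and 10479 genes. DESeq2 1.42.0, limma 3.58.1 on log2(FPKM + 1) or log2(FPKM + 0.1), fits without the run term, with only the groups compared, with a replicate block, and without single libraries were alternatives. The fits were tested on simulated data. In these the run difference was the same in every group and no library stood apart. They therefore cannot tell how the calls fare where either fails. Fold changes were not shrunk. Genes added by the authors were not tested. Counting strand was not given in the sources used here, so overlapping and antisense genes cannot be told apart, and near-identical paralogs can share reads. Positions are of genome release 6 (13550 of 13700 identifiers found, 85 genes by symbol).

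Named genes are the 12 called genes with the largest change in each direction among those with a mean of at least 50 normalized counts and groups that do not overlap, and called members of 45 hand-written lists (up to 4 a list) or, where a list has none called, its 1 or 2 members of lowest p. Further list members and genes outside this rule were chosen after their values were seen. The members and lists were chosen with earlier results of these data known.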

Additional observations from a re-analysis of the deposited data

Results flagged for a closer look

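The genes of the authors' own numbering entered no comparison, and their share of the counts stood higher in AD than in WT heads at days 20 and 30. The share was 1.001% in the lowest of the 6 AD libraries, AD day 20 replicate 1, and 1.15% in the highest, against 0.749% to 0.977% in the 6 WT libraries, without overlap. AD day 30 replicates 1 to 3 had 1.13%, 1.09% and 1.04%, within the range of AD day 20. The difference was not tested.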

How the results depend on the processing

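The 79 calls in AD heads (53 lower, 26 higher) became 0 (0 and 0) without the run term and 0 (0 and 0) with only the groups compared, where 865 and 921 genes had an unadjusted p under 0.05 by edgeR. DESeq2 gave 73 calls. Limma on log2(FPKM + 1) gave 48, with 21 lower, and 35 lower on log2(FPKM + 0.1). The second run alone, chosen after seeing the data, gave 35 calls (30 lower, 5 higher), and 4 higher without AD day 30 replicate 3 as well. The FDR limit alone gave 557 (410 and 147). A replicate block gave 4 calls (3 lower, 1 higher) in place of the run term and 52 (33 lower) beside it. The deviations of same-numbered libraries had an r of -0.04, 0.06 and -0.09 in AD and 0.13, 0.09 and 0.03 in WT flies. With replicate 1 of day 20 from another run, these values cannot decide whether the numbers are pairs. The numbers were not taken as pairs. Leaving out single libraries or both named ones gave 39 to 90 calls, with 33 (without AD day 30 replicate 1) to 75 lower and 4 to 31 higher. WT flies had 3 calls by DESeq2 and 3 with only the groups compared, and the interaction had none in any alternative. The change of mt:ND5 reversed to 1.96 under the block alone, and that of Mst84Db was 0.00 without both named libraries and in the second run without AD day 30 replicate 3, and 9.53 at most with single libraries left out. Of 2134 values for 107 named genes under alternatives, 1792 kept their direction and side of the threshold, 317 lost it, 22 gained it and 3 reversed. The 107 include many list members that were not called, and these kept their side by staying uncalled. The 1792 are therefore not a measure of how many calls held. The cause of these changes was not tested. With 3 libraries a group and 1 of the first run, the day 20 level rests on 2 libraries where the run matters.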

Other observations

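Some groups outside the account above had single members past the FDR limit alone. Mal-B2, a maltase on the list of digestive enzymes, stood at 4182, 5092 and 6101 normalized counts at AD day 20 and 10878, 8971 and 11623 at AD day 30, without overlap, a log2 change of 0.96 (adjusted p = 0.00841 by edgeR, 0.0437 without AD day 20 replicate 1). The 40 listed digestive enzymes, of which 34 had a count and 6 were at 0 in the 6 libraries, summed to 11619 to 12948 normalized counts at AD day 20 and 21360 to 28006 at AD day 30, and to 8728 to 12537 at WT day 20 and 13685 to 16289 at WT day 30, without overlap between the ages in either genotype. Mal-B2 and Amy-d held most of the sum in each AD library. Amy-d had 3878, 3137 and 2606 normalized counts at AD day 20 and 7006, 6921 and 8131 at AD day 30. Of the 12 enzymes tested, Mal-B2 alone passed the FDR limit. The insulin receptor InR had 933, 1278 and 2042 at day 20 and 898, 925 and 846 at day 30, a log2 change of -0.87, and REPTOR, a transcription factor that acts when TOR is low, had one of -0.55, and both lost the FDR limit without AD day 20 replicate 1. Of 74 tested cytochrome P450 genes, 60 had positive estimates with a median of 0.30, and 3 were higher and 2 lower by the FDR limit alone.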
